A study of Cricetiscus sungorus with 24 samples.

Results

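The genes described here were 48 enzymes and enzyme subunits of the citrate cycle, the pyruvate dehydrogenase step, glycolysis and gluconeogenesis, measured in kidneys of Djungarian (Siberian) hamsters. They were chosen by name from the pathways, and for each gene the mouse RefSeq transcript with the most reads in the experiment was used. All 48 were among the 15842 genes listed in experiment 2, and 47 were among the 9681 genes listed in experiment 1, where Hk2 was not listed. The list held 20 genes of the citrate cycle, 5 of the pyruvate dehydrogenase step, 6 of gluconeogenesis, 16 of glycolysis and Khk, which starts fructose use.

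Experiment 1 held 12 adult males. The LP group (long photoperiod, 16 h of light a day) had 4 animals, and the SP12wk and SP28wk groups had 4 animals each after 12 and 28 weeks of short photoperiod (8 h of light a day). Experiment 2 held 12 adult females that had all been moved to short photoperiod for 8 weeks. Of these, 6 received vehicle of dimethyl sulfoxide and saline (SAL) and 6 received 18 µg of prolactin in that vehicle (PRL, the preparation NIAMDD-O-PRL), injected daily on 3 days. This species changes its physiology with day length. The comparisons ask whether transcripts of these enzymes differ between the photoperiod groups, and whether they differ after prolactin in females that all stayed in short photoperiod. The kidneys of experiment 2 came from an earlier experiment.

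Glycolysis splits glucose to pyruvate, and lactate dehydrogenase converts pyruvate and lactate into each other. Pyruvate enters the mitochondrion and is either oxidised to acetyl-CoA by pyruvate dehydrogenase or carboxylated to oxaloacetate, and the citrate cycle oxidises acetyl-CoA to feed the respiratory chain. Cells of the proximal tubule are rich in mitochondria, use little glucose and make glucose from lactate, glutamine and glycerol, whereas distal segments carry out more glycolysis.

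Depth set how much each value could show. A library of experiment 1 held 15688 to 57585 counts over 1 transcript per gene, of which 105 to 290 fell on the listed enzymes, and 26 to 41 of them had a count. A library of experiment 2 held 174053 to 756523 such counts, with 1802 to 9865 on the enzymes, and 44 to 48 of them had a count. Values are given as CPM, the count scaled to a library total of 1e6. A count of 1 was worth 17.4 to 63.7 CPM in experiment 1 and 1.32 to 5.75 CPM in experiment 2, and a gene without a count could lie as high as 3 counts, or 52.1 to 191 CPM and 3.97 to 17.2 CPM. These limits cover counting error alone. LP replicate 2 stood apart from the other libraries, with a mean correlation to them of 0.393 on the log2 scale against 0.584 to 0.714 for the other 11 libraries of experiment 1 and 0.917 to 0.95 for those of experiment 2. The sums of LP and the enzymes' log2 fold changes against LP are therefore given with and without it.

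Markers of the labelled tissue were checked. The summed level of proximal tubule markers was 943 to 1529.9 CPM in experiment 1 and 541 to 1606 CPM in experiment 2, with 8 of 9 listed in each table and Cubn, the endocytic receptor of that segment, listed in neither. In experiment 1 that sum was mostly Lrp2, with 319 reads, and each other listed marker had 2 to 14 reads. Aqp2 and Slc4a1 of the collecting duct and Nphs1 and Podxl of podocytes were not listed in experiment 1. The adrenal list held no read in experiment 1 and 13 reads in experiment 2. Haemoglobin and other red cell transcripts took 8908 to 44112 CPM. In experiment 2 paired globin genes had near-equal reads, with Hba-a1 at 10086 and Hba-a2 at 10046, and Hbb-bs at 18797 and Hbb-bt at 18757. The red cell level is uncertain to the extent that such copies share reads.

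With 1 transcript per gene, the citrate cycle had the largest sum of the pathways in every group. Their summed levels in LP, SP12wk and SP28wk were 3624 ± 934, 3050 ± 252 and 2992 ± 327 CPM (mean ± SD, n = 4 each), and those in SAL and PRL were 4677 ± 974 and 5058 ± 1142 CPM (n = 6 each). The glycolysis sums of the same groups were 2337 ± 866, 2249 ± 272 and 1782 ± 64.4 CPM in experiment 1 and 2472 ± 678 and 3054 ± 802 CPM in experiment 2. The LP libraries spanned 1224 to 3218 CPM, so they enclosed the values of both short photoperiod groups. The SP28wk libraries at 1700 to 1857 CPM lay below all but the lowest LP value and below all SP12wk values (1865 to 2460 CPM). The highest SP28wk library (replicate 3, 1857 CPM) and the lowest SP12wk library (replicate 4, 1865 CPM) were less than 1 read apart. A read was worth 28.6 and 28.3 CPM in them. The gluconeogenesis sums were 476 ± 306, 664 ± 236 and 432 ± 175 CPM in experiment 1 and 1349 ± 344 and 1585 ± 530.3 CPM in experiment 2, with overlap between all groups of an experiment. The pyruvate dehydrogenase sums were 183 ± 149, 132 ± 40.6 and 109 ± 17.8 CPM, on 12 to 16 reads a group, and 220.1 ± 47.7 and 239.8 ± 77.5 CPM. Without LP replicate 2 the LP sums were 3448 ± 1060 CPM for the citrate cycle, 2406 ± 1048 CPM for glycolysis, 597 ± 228 CPM for gluconeogenesis and 170 ± 179 CPM for pyruvate dehydrogenase (n = 3). The sums depended on the choice of transcript. With counts summed over all transcripts of a gene, the glycolysis means were 4318 CPM in LP and 4439 CPM in SP12wk, above the citrate cycle at 4158 and 3628 CPM, and 3206 CPM in SP28wk, below it at 3629 CPM. In SAL and PRL the glycolysis means became 3657 and 4591 CPM, below the citrate cycle at 4395 and 4727 CPM, and the gluconeogenesis means became 869 and 961 CPM. In whole kidney, fewer cells of a type and less RNA per cell cannot be told apart in such values.

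**Figure D1:**
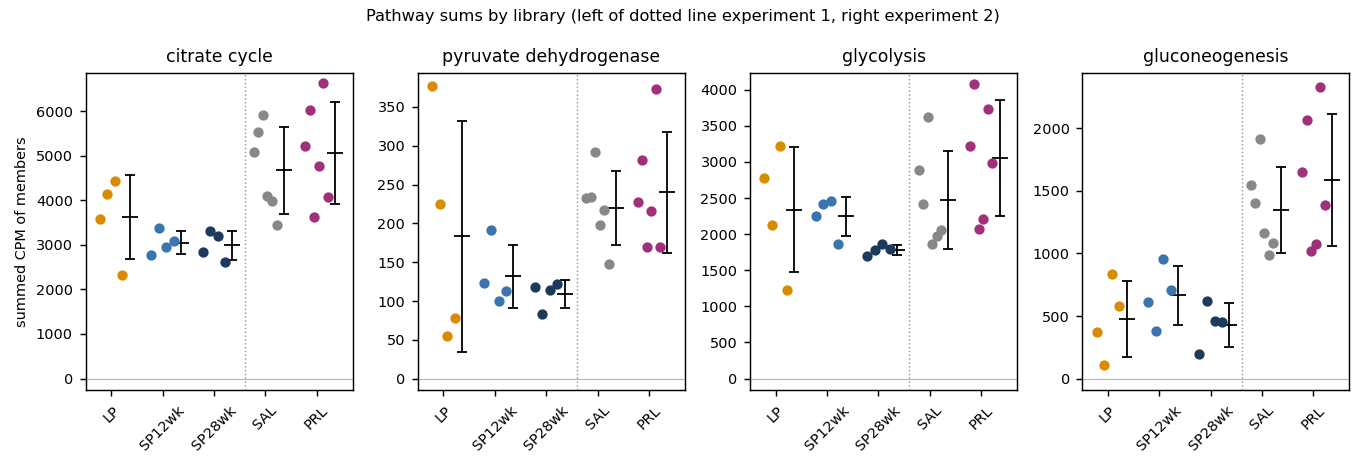
Summed CPM (y axis) of the listed enzymes of each pathway in every library (points, in order of replicate number), with the mean and SD of each group beside the points in black. Within each experiment, groups overlap in every panel except glycolysis, where all SP28wk libraries (1700 to 1857 CPM) lie below all SP12wk libraries. That gap is smaller than the worth of 1 read. SAL and PRL overlap throughout.

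In experiment 1 no listed enzyme passed the test in any photoperiod comparison. With edgeR's quasi-likelihood test and Benjamini-Hochberg adjustment over the 5086 genes tested, SP12wk and LP differed at an adjusted p under 0.05 in 0 of 40 enzymes and in 0.0197% of all genes. The count was also 0 of 40 between SP28wk and SP12wk (0.138% of all genes), between SP28wk and LP (0.216%) and over the 3 groups jointly (0.275%), and the smallest adjusted p of an enzyme was 0.44. DESeq2 and limma-voom called 0 enzymes in each of these comparisons as well. At an unadjusted p under 0.05, edgeR picked 3 of 40 enzymes between SP12wk and LP (7.27% of all genes), 0 between SP28wk and SP12wk (6.1%), 2 between SP28wk and LP (8.61%) and 1 over the 3 groups jointly (7.55%). DESeq2 picked 0 enzymes in all of them, and limma-voom picked 5, 1, 4 and 2 in the same order. The comparisons share groups and are not independent of each other. Aco1, Pdk4, Fbp2, G6pc, Pfkl, Pfkp and Pklr had counts in too few libraries to be tested.

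The intervals were wide. The standard error of an enzyme's log2 fold change had a median of 0.79 to 0.85 in the photoperiod comparisons. The 95% interval (normal approximation) lay within a 2-fold change in either direction for 1 of 40 enzymes between SP12wk and LP, 0 between SP28wk and LP and 1 between SP28wk and SP12wk. A 2-fold difference was thus not detectable for most of these genes at this depth.

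The oxidation of isocitrate is an early step of the citrate cycle. Idh2, the mitochondrial NADP-dependent isocitrate dehydrogenase, had 188, 224, 166 and 38.8 CPM in LP, 245, 191, 251 and 254 CPM in SP12wk, and 158, 124, 85.7 and 86.8 CPM in SP28wk, on 12, 23 and 15 reads. All SP12wk libraries lay above all SP28wk libraries, and LP overlapped both groups. The lowest SP12wk value (replicate 2, 191 CPM, 3 reads) and the highest SP28wk value (replicate 1, 158 CPM, 4 reads) were less than 1 read apart. A read was worth 63.7 and 39.5 CPM in them. The log2 fold change of SP28wk against SP12wk was -0.95 ± 0.62 (SE; edgeR adjusted p = 0.979). Idh3g, a regulatory subunit of the NAD-dependent enzyme of the cycle, had 188, 0, 0 and 0 CPM in LP, 123, 255, 100.4 and 141 CPM in SP12wk, and 0, 166, 85.7 and 52.1 CPM in SP28wk. Its 4 reads in LP all came from replicate 1. The log2 fold change of SP12wk against LP was 1.68 ± 0.85 (edgeR unadjusted p = 0.0486, adjusted p = 0.637), and without LP replicate 2 it was 1.30 (unadjusted p = 0.131). Without LP replicate 1, which leaves LP at 0, the adjusted p was 0.198. Of the other subunits of this enzyme, the catalytic Idh3a had 11, 3 and 6 reads in LP, SP12wk and SP28wk, and Idh3b had 1, 4 and 5.

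Succinyl-CoA ligase makes succinate, and its shared subunit Suclg1 had the most reads of the cycle in experiment 1. Suclg1 had 847, 1234, 999 and 505 CPM in LP, 572, 382, 954 and 735 CPM in SP12wk, and 711, 498, 628 and 504 CPM in SP28wk. The groups overlapped, and the log2 fold change of SP28wk against LP was -0.22 ± 0.47 (edgeR adjusted p = 0.956), and -0.15 without LP replicate 2. Suclg2, the GDP-forming partner subunit, had 47.0, 112, 55.5 and 0 CPM in LP, 0, 0, 0 and 28.3 CPM in SP12wk, and 79.0, 83.0, 0 and 52.1 CPM in SP28wk. These values were 4, 1 and 7 reads in the groups. Suclg2 is a gene that the study itself plotted from these samples, so its pattern here is no independent evidence. The read ratio of SP12wk to LP after scaling to depth was 0.217 with an exact 95% counting interval of 0.00441 to 2.19, and the edgeR log2 fold changes were -1.63 ± 1.38 for SP12wk against LP and 2.01 ± 1.27 for SP28wk against SP12wk (adjusted p = 0.801 and 0.979). The former was -1.14 ± 1.55 without LP replicate 2. The ADP-forming partner Sucla2 had 8, 2 and 7 reads, so both partners had their lowest count in SP12wk. The SP12wk differences of both were within counting error.

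Succinate dehydrogenase passes electrons to the respiratory chain. Its iron-sulfur subunit Sdhb had 282, 112, 555 and 272 CPM in LP, 327, 319, 502 and 649.9 CPM in SP12wk, and 198, 290.4, 571 and 434 CPM in SP28wk. The membrane anchor Sdhc had 94.1, 617, 610.4 and 583 CPM in LP, 531, 446, 201 and 198 CPM in SP12wk, and 474, 581, 428 and 347 CPM in SP28wk. The groups overlapped for both subunits. The other anchor, Sdhd, had 0, 0, 0 and 77.7 CPM in LP, 0, 63.7, 100.4 and 28.3 CPM in SP12wk, and 0, 166, 143 and 86.8 CPM in SP28wk, on 2, 4 and 14 reads. Each group held a library without a read, and 3 of 4 LP libraries were at 0. Its log2 fold change in SP28wk against LP was 2.18 ± 1.02 (edgeR unadjusted p = 0.0319, adjusted p = 0.538). Without LP replicate 2 it was 1.77 (unadjusted p = 0.0909), and without LP replicate 4, which held both LP reads and leaves LP at 0, the adjusted p was 0.17. The catalytic subunit Sdha had 6, 10 and 8 reads.

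Of the 19 cycle enzymes tested, 9 had a log2 fold change above 0 in SP12wk against LP, with a median of -0.011 beside 0.0023 over all genes. Between SP28wk and LP, 9 of 19 lay above 0, with a median of -0.065 beside 0.18 over all genes. That median ran from -0.43 with library totals to 0.03 with limma-voom, so its sign depended on the tool. Without LP replicate 2 the medians against LP were -0.071 in SP12wk and 0.034 in SP28wk. Between SP28wk and SP12wk, 10 of 19 did, with a median of 0.16 beside 0.16 over all genes. Of all genes, 52.6% lay above 0 between SP12wk and LP, 58.7% between SP28wk and LP and 58.3% between SP28wk and SP12wk. SP28wk held the deepest library (57585 counts) and had the highest median library total of the 3 groups. Scaling by library totals in place of TMM moved the median of all genes in SP28wk against LP by -0.34. The other cycle enzymes tested were the citrate synthase Cs, the cytosolic isocitrate dehydrogenase Idh1, the oxoglutarate dehydrogenase subunits Ogdh, Dlst and Dld, the fumarase Fh1 and the malate dehydrogenases Mdh1 and Mdh2. They had 5 to 26 reads in each group, and their largest log2 fold change in size was -1.27 ± 0.71 for Fh1 in SP12wk against LP (edgeR adjusted p = 0.655), and -1.37 without LP replicate 2. Fh1 was chosen after its values were seen.

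At the pyruvate dehydrogenase step, Pdha1 and Pdhb, which form the decarboxylating subunit, had 3 to 6 and 4 to 5 reads a group. The acetyltransferase Dlat had 2, 1 and 3 reads in LP, SP12wk and SP28wk, and the inhibitory kinases Pdk2 and Pdk4 had 2 to 3 and 0 to 1. Of the 4 tested, 1 lay above 0 in SP12wk against LP and 1 in SP28wk against LP, with medians of -0.63 and -0.20, or -0.64 and -0.21 without LP replicate 2. No order of groups can be read from counts this low.

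In glycolysis, the aldolase Aldoa had the most reads of all listed enzymes in experiment 1. It had 1552, 1178, 1720.2 and 427 CPM in LP, 1104, 1211, 1004 and 876 CPM in SP12wk, and 869.5, 913, 543 and 712 CPM in SP28wk. LP replicate 4 was the lowest library and LP held the 2 highest values, so the LP spread enclosed both other groups. The log2 fold change of SP28wk against LP was -0.32 ± 0.46 and that of SP28wk against SP12wk was -0.29 ± 0.46 (edgeR adjusted p = 0.907 and 0.98). The former was -0.42 ± 0.40 without LP replicate 2. Gapdh, which oxidises glyceraldehyde 3-phosphate, had 564, 56.1, 222 and 272 CPM in LP, 327, 382, 502 and 452 CPM in SP12wk, and 277, 373, 657 and 382 CPM in SP28wk. Its LP values again reached beyond those of SP12wk on both sides. Pgam1, the phosphoglycerate mutase, had 94.1, 393, 277 and 194 CPM in LP, 163, 127, 50.2 and 84.8 CPM in SP12wk, and 119, 41.5, 28.6 and 156 CPM in SP28wk. Its log2 fold change of SP28wk against LP was -0.86 ± 0.65 (edgeR adjusted p = 0.812), and -0.69 without LP replicate 2. Tpi1, the triosephosphate isomerase, had 47.0, 56.1, 0 and 0 CPM in LP, 0, 0, 251 and 28.3 CPM in SP12wk, and 0, 124, 57.1 and 104 CPM in SP28wk, and 5 of its 6 reads in SP12wk came from replicate 3. Gpi1, the glucose 6-phosphate isomerase, had 2, 10 and 3 reads in LP, SP12wk and SP28wk and was named after its values were seen. Its read ratio of SP28wk to SP12wk was 0.202 (exact 95% counting interval 0.0357 to 0.783), and the edgeR log2 fold change over libraries was -1.93 ± 0.99 (unadjusted p = 0.0523, adjusted p = 0.824). In SP12wk against LP all 4 SP12wk values (81.7 to 151 CPM) lay above all LP values (0 to 55.5 CPM). This separation rested on 12 reads, fewer than the 20 required when non-overlapping groups were counted. How often other genes with so few reads separate was not tested. The log2 fold change of Gpi1 in SP12wk against LP was 2.10 ± 1.09 (edgeR unadjusted p = 0.0535, adjusted p = 0.641), and 1.73 ± 1.13 without LP replicate 2.

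The last steps concern pyruvate and lactate. Pkm, a pyruvate kinase, had 94.1, 224, 166 and 0 CPM in LP, 123, 127, 0 and 0 CPM in SP12wk, and 0, 0, 85.7 and 0 CPM in SP28wk, on 9, 5 and 3 reads. The read ratio of SP28wk to LP was 0.194 with an exact 95% counting interval of 0.0339 to 0.779, while the edgeR test over libraries gave a log2 fold change of -1.79 ± 1.00 (adjusted p = 0.64), and -1.43 ± 1.13 without LP replicate 2. Ldhb, the lactate dehydrogenase subunit typical of oxidative tissue, had 235, 0, 222 and 19.4 CPM in LP, 163, 127, 251 and 141 CPM in SP12wk, and 39.5, 83.0, 114 and 52.1 CPM in SP28wk. All SP12wk libraries lay above all SP28wk libraries, with a log2 fold change of -1.03 ± 0.70 (edgeR adjusted p = 0.979). The lowest SP12wk value (replicate 2, 127 CPM, 2 reads) and the highest SP28wk value (replicate 3, 114 CPM, 4 reads) were less than 1 read apart. A read was worth 63.7 and 28.6 CPM in them. Ldha, the subunit typical of glycolytic tissue, had no read in LP. It had 0, 63.7, 0 and 28.3 CPM in SP12wk and 79.0, 0, 28.6 and 86.8 CPM in SP28wk, on 2 and 8 reads. Against a floor of 3 counts over the LP group, the pooled SP28wk level was 1.56-fold higher. This bound leaves out the counting error of the 8 SP28wk reads. The edgeR unadjusted p was 0.00999 for SP28wk against LP and 0.0305 over all 3 groups, with adjusted p of 0.44 and 0.63, and without LP replicate 2 the unadjusted p for SP28wk against LP was 0.0255 (adjusted p = 0.882).

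Idh2 and Ldhb were 2 of 21 enzymes with at least 20 reads whose SP28wk values all lay below those of SP12wk, and 3.62% of all genes with that many reads did so. In both enzymes the gap between the groups was smaller than the worth of 1 read. Among enzymes with at least 20 reads in the comparison, none had SP28wk values all above SP12wk (3.09% of genes), and none separated SP12wk or SP28wk from LP, where 2.13% of genes lay wholly above and 2.13% wholly below in SP12wk, and 2.11% above and 1.72% below in SP28wk. Of the 12 glycolysis genes tested, 7 lay above 0 in SP12wk against LP, 7 in SP28wk against LP and 6 in SP28wk against SP12wk, with medians of 0.34, 0.20 and -0.0089. The median of SP28wk against LP had the opposite sign of the difference in summed CPM, and turned to -0.14 when libraries were scaled by their totals and to -0.01 under RLE scaling. It was 0.20 as well when Ldha was set to its bound, and -0.16 without LP replicate 2, where the median of SP12wk against LP was 0.13.

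In gluconeogenesis, Pck1, the cytosolic enzyme that makes phosphoenolpyruvate, had 282, 112, 555 and 272 CPM in LP, 286, 191, 251 and 311 CPM in SP12wk, and 39.5, 456, 199.96 and 156 CPM in SP28wk. Its 4 LP read counts happened to equal those of Sdhb, whereas the other libraries differed. The groups overlapped, with log2 fold changes of 0.01 ± 0.54 for SP12wk against LP and -0.22 ± 0.56 for SP28wk against SP12wk (edgeR adjusted p = 1 and 0.98). The former was -0.28 ± 0.55 without LP replicate 2. Pcx, which carboxylates pyruvate, had 94.1, 0, 166 and 155 CPM in LP, 204, 191, 402 and 113 CPM in SP12wk, and 119, 83.0, 85.7 and 191 CPM in SP28wk. Its log2 fold change of SP12wk against LP was 1.15 ± 0.69 (edgeR adjusted p = 0.67), and 0.72 ± 0.69 without LP replicate 2. Fbp1, the fructose bisphosphatase of liver and kidney, had 0, 0, 55.5 and 155 CPM in LP, 40.9, 0, 201 and 141 CPM in SP12wk, and 39.5, 41.5, 171 and 69.5 CPM in SP28wk, on 5, 10 and 12 reads. The groups overlapped in Pcx and Fbp1 too.

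Pck2, the mitochondrial counterpart of Pck1, had no read in LP, 81.7, 0, 100.4 and 0 CPM in SP12wk, and 0, 41.5, 0 and 17.4 CPM in SP28wk. Its 4 pooled reads in SP12wk were 1.16-fold above a floor of 3 counts over the LP group. This bound too leaves out the counting error of the SP12wk reads. The edgeR p of SP12wk against LP was 0.0273 unadjusted and 0.6 adjusted (0.052 unadjusted without LP replicate 2). G6pc, which releases free glucose, had 1 read in the whole of experiment 1, in SP12wk replicate 4. Khk, the fructokinase, had 282, 0, 55.5 and 155 CPM in LP, 327, 319, 703 and 84.8 CPM in SP12wk, and 158, 249, 199.96 and 69.5 CPM in SP28wk. Its log2 fold change of SP12wk against LP was 1.47 ± 0.63 (edgeR unadjusted p = 0.0195, adjusted p = 0.6), and 1.03 ± 0.62 without LP replicate 2, the library at 0 (unadjusted p = 0.0958).

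All 4 gluconeogenesis genes tested had log2 fold changes above 0 in SP12wk against LP, with a median of 1.04, or 0.57 with Pck2 at its bound, and all 4 lay below 0 in SP28wk against SP12wk, with a median of -0.39. These comparisons share the SP12wk libraries, so a high SP12wk group gives both. Pck1 was at 0.01 in the former. Without LP replicate 2, Pck1 lay below 0, which leaves 3 of 4 genes above it, and the median was 0.62. In SP28wk against LP 3 of 4 genes lay above 0, with a median of 0.70, or 0.25 without LP replicate 2, and 0.076 to 1.52 with any library left out. Under the other scalings and tools the median was 0.87 to 1.08 in SP12wk against LP and -0.58 to -0.54 in SP28wk against SP12wk. The median of SP12wk against LP was 0.57 to 2.03 with any library left out, and none of the 4 genes passed the test.

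**Figure D2:**
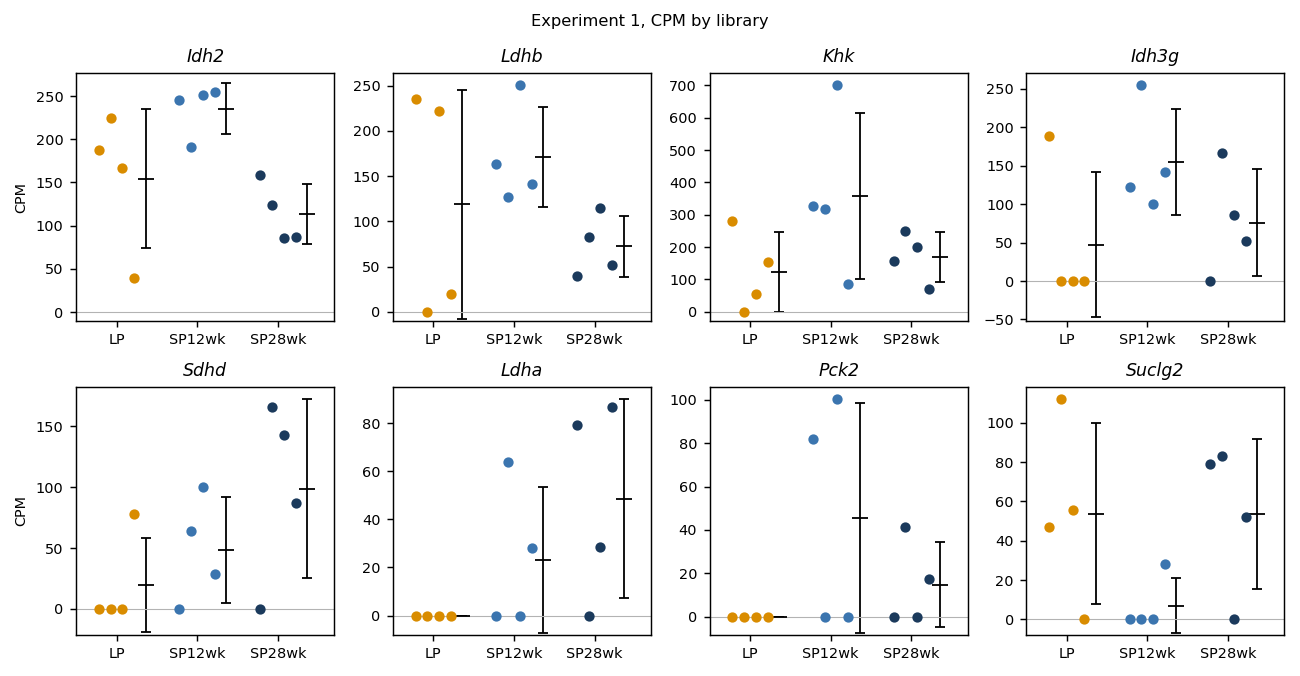
CPM (y axis) of 8 enzymes in each library of experiment 1 (points), with the group mean and SD in black. Idh2 and Ldhb have every SP12wk point above every SP28wk point, whereas Pck2 and Ldha are at 0 in all 4 LP libraries and the other genes overlap between groups. In Idh2 and Ldhb that gap is smaller than the worth of 1 read.

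In experiment 2, prolactin was followed by no difference in a listed enzyme that passed the test. With edgeR, 0 of 47 enzymes and 0 of 10696 genes (0%) had an adjusted p under 0.05, and DESeq2 and limma-voom called 0 enzymes too. At an unadjusted p under 0.05 edgeR picked 1 enzyme, Pkm, while 4.88% of all genes were picked. No enzyme with at least 20 reads had SAL and PRL values that did not overlap (0 of 46, beside 0.129% of genes with all PRL values higher and 0.0117% with all lower). Hk2, an inducible hexokinase with 5 reads in all, was not tested. The intervals were narrower than in experiment 1: the median standard error was 0.24, and the 95% interval lay within a 2-fold change for 37 of 47 enzymes.

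Pkm had 45.1, 73.6 and 103 CPM in SAL (lowest, median and highest of 6) and 64.4, 109 and 144 CPM in PRL. Of the 6 PRL libraries, 5 lay above every SAL library and replicate 4 lay within the SAL range. The means were 71.2 ± 22.2 and 109 ± 26.0 CPM, the log2 fold change was 0.57 ± 0.24, and the edgeR p was 0.0225 unadjusted and 0.887 adjusted. With any library left out the log2 fold change was 0.45 to 0.71. Without PRL replicate 2, SAL replicate 2 or SAL replicate 5, no listed enzyme had an edgeR unadjusted p under 0.05.

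Most other glycolysis genes had differences of the same sign, within the spread of the animals. Aldoa had 395, 493 and 671 CPM in SAL and 492, 673 and 856 CPM in PRL, and the log2 fold change was 0.30 ± 0.19 (edgeR adjusted p = 0.998). Ldhb had 308, 431 and 630.3 CPM in SAL and 332, 486 and 760.1 CPM in PRL, and the log2 fold change was 0.23 ± 0.21 (adjusted p = 0.998). The ranges of both genes overlapped. Tpi1 had 189.7, 263 and 484 CPM in SAL and 170.0, 393 and 519 CPM in PRL, and the log2 fold change was 0.21 ± 0.25. Gapdh had 144, 222 and 329 CPM in SAL and 138, 238 and 449 CPM in PRL, with a log2 fold change of 0.21 ± 0.24. Of the 15 glycolysis genes tested, 12 had a log2 fold change above 0, with a median of 0.30 beside 0.03 over all genes tested. The median was 0.23 to 0.36 under the other scalings and tools and 0.08 to 0.32 with any library left out. The 3 below or at 0 were the phosphofructokinase genes Pfkl, Pfkm and Pfkp, which encode the main regulated step of the pathway and had 37, 111 and 44 reads. The values that picked these 3 were seen beforehand.

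The citrate cycle genes lay closer to 0. Sdhb had 653, 929 and 1093 CPM in SAL and 640.5, 984 and 1178 CPM in PRL, with a log2 fold change of 0.06 ± 0.19. Suclg1 had 531, 777 and 996 CPM in SAL and 668, 797 and 1103 CPM in PRL, with a log2 fold change of 0.02 ± 0.18. Sdhd had 339, 525 and 735 CPM in SAL and 346, 559 and 776 CPM in PRL, with a log2 fold change of -0.05 ± 0.20. The groups overlapped over most of their range in all 3 genes. Suclg2, which the study plotted in experiment 1, had 57.6, 78.3 and 128 CPM in SAL and 62.4, 93.9 and 132 CPM in PRL, and its log2 fold change was 0.14 ± 0.24 (edgeR adjusted p = 0.998) and -0.02 without PRL replicate 2. Idh2 had 91.8, 134 and 178 CPM in SAL and 83.0, 187 and 230.0 CPM in PRL (log2 fold change 0.33 ± 0.23). Of the 20 cycle genes, 13 lay above 0, with a median of 0.05 beside 0.03 over all genes. The 4 subunits of succinate dehydrogenase ran from -0.32 for Sdha to 0.06 for Sdhb.

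At the pyruvate dehydrogenase step, Pdhb had 262 reads in SAL and 332 in PRL, with means of 125 ± 35.3 and 143 ± 46.1 CPM. Dlat had 37 and 30 reads and the lowest log2 fold change of all listed enzymes, -0.48 ± 0.38. The kinases Pdk2 and Pdk4 had 49 and 20 reads in the whole experiment and log2 fold changes of 0.44 ± 0.52 and 0.63 ± 0.72. The median of the 5 genes was 0.12, and none was near the threshold.

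In gluconeogenesis, Fbp1 had the most reads of the pathway. Its levels were 422, 652 and 1041 CPM in SAL and 372, 789 and 1413 CPM in PRL, with a log2 fold change of 0.29 ± 0.25 (edgeR adjusted p = 0.998). Pck1 had 217, 321 and 409.8 CPM in SAL and 301, 389 and 491 CPM in PRL (log2 fold change 0.19 ± 0.20). Pcx had 126, 171 and 193 CPM in SAL and 96.4, 133 and 189.6 CPM in PRL, and its log2 fold change was of the other sign, -0.30 ± 0.21 (adjusted p = 0.998). The groups overlapped in each of these genes. Pck2 had 5.202, 12.5 and 15.05 CPM in SAL and 5.75, 21.8 and 26.8 CPM in PRL on 25 and 51 reads, with a log2 fold change of 0.78 ± 0.40 (edgeR unadjusted p = 0.0563). G6pc averaged 107 ± 47.9 CPM in SAL and 120.1 ± 76.4 CPM in PRL. Of the 6 genes, 4 lay above 0, with a median of 0.16. Khk had 254, 344 and 446 CPM in SAL and 225, 474 and 586 CPM in PRL (log2 fold change 0.25 ± 0.22).

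**Figure D3:**
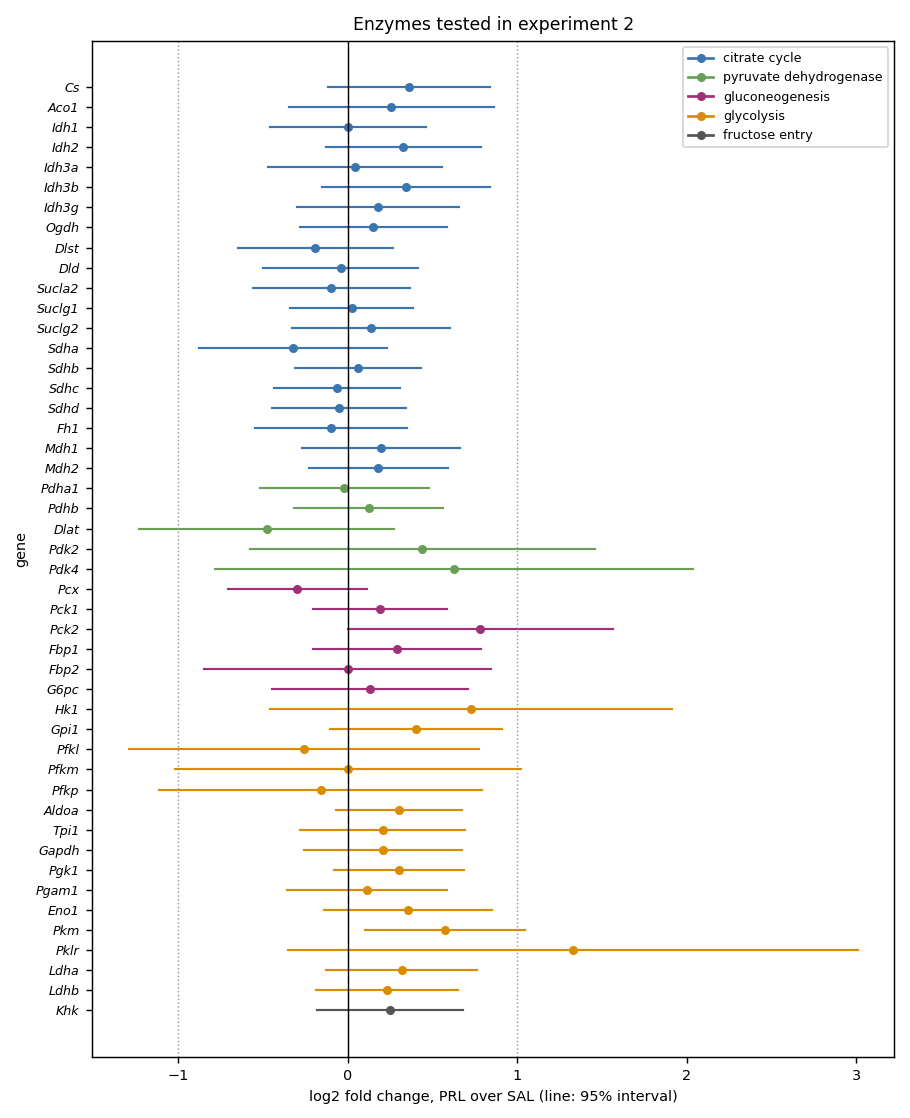
Log2 fold change of PRL over SAL (x axis) for the 47 enzymes tested in experiment 2 (y axis, coloured by pathway), with lines for the 95% interval and dotted lines at a 2-fold change. The intervals of 37 enzymes lie between the dotted lines, and 33 points lie to the right of 0.

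Over all pathways, 33 of 47 enzymes had a log2 fold change above 0 in PRL against SAL, where 52.7% of all genes did. With library totals in place of TMM scaling the count was 38 of 47, with RLE scaling it was 32, and with counts summed over the transcripts of a gene it was 31. The enzymes were measured in the same 12 kidneys and vary together, so this count has no test.

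**Figure D4:**
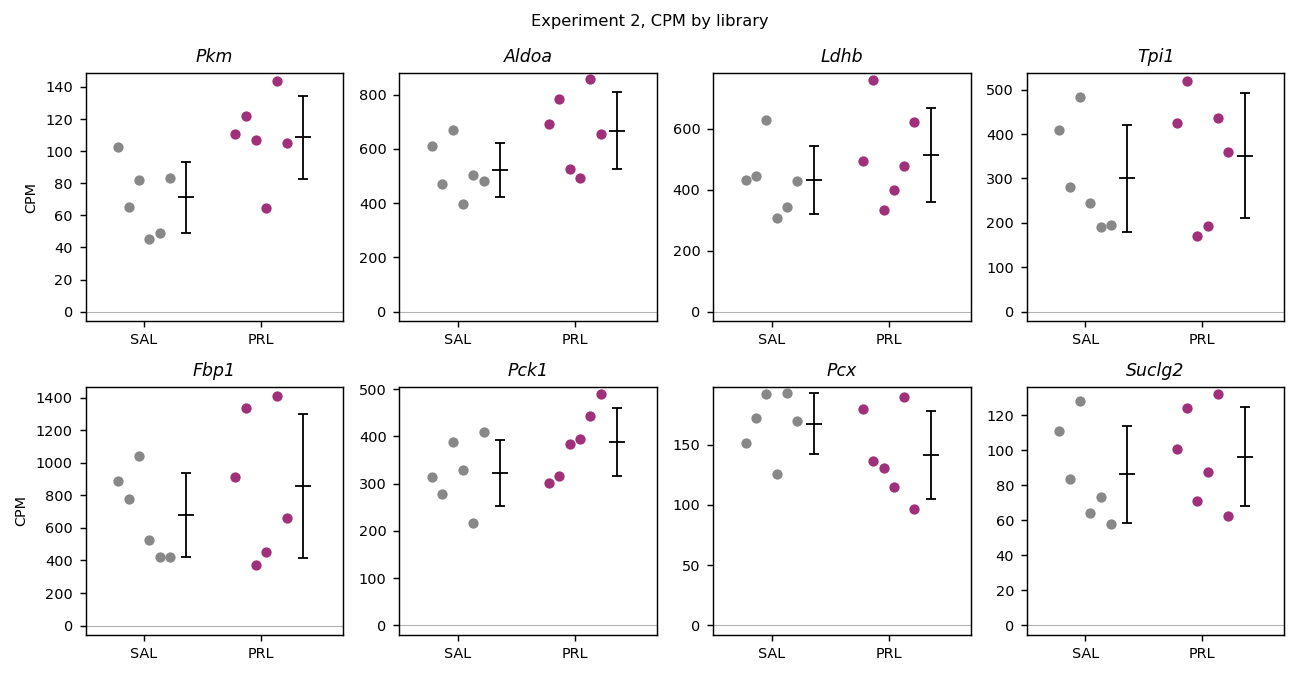
CPM (y axis) of 8 enzymes in each library of experiment 2 (points), with the group mean and SD in black. For Pkm 5 of 6 PRL libraries lie above all SAL libraries, and the groups overlap in the other 7 genes.

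In experiment 2 the sum over all 48 enzymes was 9066 ± 2008 CPM in SAL and 10367 ± 2574 CPM in PRL, so the SD within either group exceeded the difference between the means. The 6 libraries with the highest sum over all 48 enzymes were SAL replicates 1, 2 and 3 and PRL replicates 1, 2 and 5, at 10004 to 13594 CPM, and the other 6 had 7027 to 9104 CPM. The same 6 libraries had the highest sums of citrate cycle, pyruvate dehydrogenase and gluconeogenesis genes, and 5 of them were among the 6 highest for glycolysis. They were also the 6 libraries with the highest sums of proximal tubule markers (1074 to 1606 CPM, against 541 to 938 CPM in the others) and of thick limb and distal tubule markers (324 to 594 CPM, against 154 to 284 CPM). They were not the deepest: 4 of them were among the 6 libraries with the largest totals, and 2 were among the 6 with the most red cell transcripts. The other marker lists matched less. Of the 6 highest libraries for collecting duct, podocyte, endothelium and adrenal markers, 4 were shared each time. For skeletal muscle markers 3 were shared, and for adipose markers 1. The collecting duct, skeletal muscle and adipose sums were mostly 1 gene each, Atp6v1g3 (1981 reads), Tnnt3 (808) and Fabp4 (513). Other genes of these lists had at most 144 reads. The part of cell composition in the enzyme levels was not tested.

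Some enzymes come as alternative genes for the same step, and their shares of reads can be compared between groups, although reads were not scaled to transcript length. Ldha took 28.5% ± 4.96 of the lactate dehydrogenase reads in SAL and 30.2% ± 4.24 in PRL. In experiment 1 it took 0 of 9.5 reads in LP, 2 of 18 in SP12wk and 8 of 18 in SP28wk. Idh2 took 42.9% ± 6.01 of the reads of Idh1 and Idh2 in SAL and 47.1% ± 11.4 in PRL, Suclg2 took 44.0% ± 7.18 and 47.0% ± 5.73 of the reads of Suclg2 and Sucla2, and Pck2 took 3.50% ± 1.34 and 4.76% ± 2.64 of the reads of Pck1 and Pck2. Pkm took 97.4% ± 4.30 of the pyruvate kinase reads in SAL and 96.6% ± 2.77 in PRL, and Fbp2 took 8.33% ± 1.54 and 7.67% ± 3.51 of the reads of Fbp1 and Fbp2. Each of these differences between SAL and PRL was smaller than the SD of either group.

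The levels of experiment 1 and experiment 2 stand side by side without a test, since sex, flow cell and handling differ along with photoperiod and cannot be told apart, and each table was made separately. The rank correlation of the mean CPM across the 47 enzymes listed in both was 0.705 (Spearman's rho, a description). Fbp1 averaged 76.3 CPM in experiment 1 and 769 CPM in experiment 2, Sdhd 55.5 and 554 CPM, Ldha 23.9 and 198 CPM, and Tpi1 55.7 and 326 CPM. G6pc stood out most: its 1 read of 320294 gave 3.12 CPM with an exact 95% counting interval of 0.0790 to 17.4 CPM, and its 526 reads in experiment 2 gave 117 CPM (107 to 127 CPM). Both intervals cover counting error alone, and G6pc ran from 38.4 to 236 CPM over the 12 libraries of experiment 2. At the mean of its 12 library values in experiment 2, 114 CPM, 36.4 reads would have been counted in experiment 1. Other enzymes had higher values in experiment 1, with Aldoa at 1009 and 595 CPM, Cs at 151 and 76.2 CPM, Ogdh at 236 and 119 CPM and Hk1 at 38.5 and 7.82 CPM. These genes were chosen after their values were seen. The transcript with the most reads was the same in both tables for 34 of the 47 enzymes, Fbp1, Sdhd, Ldha, Tpi1, G6pc, Aldoa, Cs and Ogdh among them, and another transcript for Hk1.

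**Figure D5:**
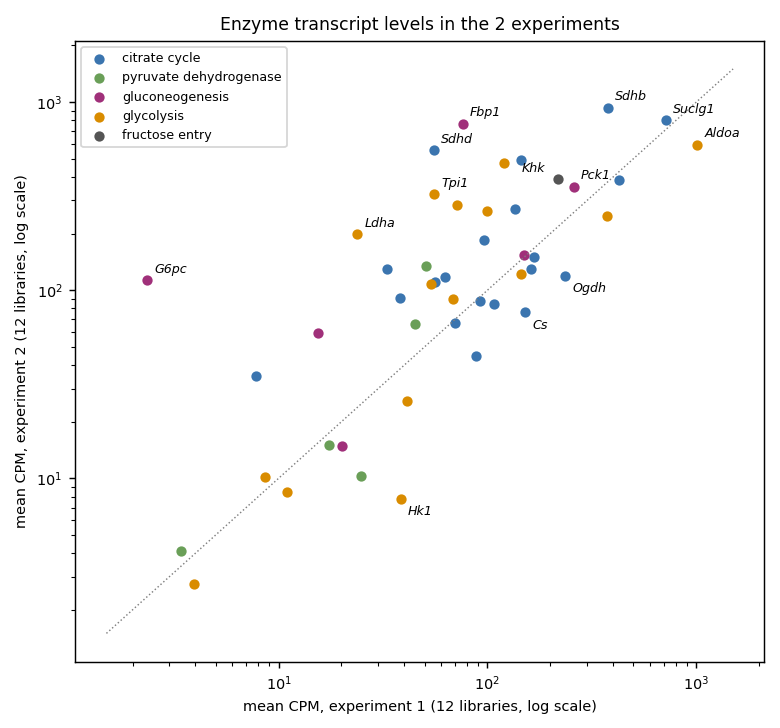
Mean CPM of each enzyme over the 12 libraries of experiment 1 (x axis, log scale) and of experiment 2 (y axis, log scale), coloured by pathway, with a dotted line at equal values. Fbp1 (76.3 and 769 CPM), Sdhd, Ldha and Tpi1 lie above the line, and Hk1, Aldoa, Cs and Ogdh lie below it.

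Reads were counted on mouse transcripts, and near-identical copies can share them. In experiment 2 the glycolytic Eno1 had 1348 reads and its copy Eno1b 1473, Gapdh had 1207 and the pseudogene Gm12070 had 1790, and Aldoa had 2705 and Aldoart1 395. The levels of Eno1, Gapdh and Aldoa are uncertain to that extent.

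Other genes of the same pathways gave no call either. Of 92 such genes (regulators, transporters, glycogen enzymes and alternative isoforms), 60 were listed and 30 tested in experiment 1 and 85 listed and 75 tested in experiment 2, and 0 passed edgeR's test in any comparison. At an unadjusted p under 0.05 edgeR picked 2 of 30 between SP12wk and LP (7.27% of all genes), 3 between SP28wk and SP12wk (6.1%), 4 between SP28wk and LP (8.61%), 4 over the 3 groups jointly (7.55%) and 2 of 75 between PRL and SAL (4.88%). The smallest p in experiment 1 belonged to Mcee, an epimerase that leads propionyl-CoA into the cycle. It had no read in LP, 8 in SP12wk and 16 in SP28wk. Its pooled SP28wk level was 3.11-fold above a floor of 3 counts over the LP group (edgeR adjusted p = 0.103 for SP28wk against LP). The counting error of the 16 SP28wk reads is left out of that bound. Sdhaf3, an assembly factor of succinate dehydrogenase, had 0, 0 and 7 reads (adjusted p = 0.356 over all 3 groups). Mpc2, a subunit of the mitochondrial pyruvate carrier, averaged 287 ± 149.9, 435 ± 260.5 and 636 ± 239 CPM in LP, SP12wk and SP28wk (log2 fold change of SP28wk against LP 1.42 ± 0.51, adjusted p = 0.381). In experiment 2 the smallest p belonged to Slc25a10, the mitochondrial dicarboxylate carrier, with 11.5 ± 5.39 CPM in SAL and 3.70 ± 3.24 CPM in PRL, to Ppargc1a, a coactivator of mitochondrial and gluconeogenic genes, with 22.3 ± 8.65 and 13.1 ± 7.29 CPM, and to Cebpa, a transcription factor of liver metabolism, with 6.90 ± 3.92 and 12.8 ± 5.17 CPM. The edgeR adjusted p of these 3 genes were 0.934, 0.993 and 0.998.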

How the data were processed

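Kidney RNA of 24 hamsters was sequenced as nanopore cDNA, with 1 flow cell for each experiment of 12 animals. The kit is a direct cDNA kit in the study's methods but a PCR-based kit in the labels, under identical catalogue numbers. The authors basecalled with Guppy, trimmed with Porechop, filtered with Filtlong, aligned to the mouse RefSeq genome with minimap2 (the submitters' processing notes also name Salmon) and deposited estimated counts per transcript (expected counts, not scaled to depth). Of the values of the listed enzymes, 1 was not whole and was rounded for the tests.

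For each gene the transcript with the highest total in the table was used. Genes counted in 4 or more of 12 libraries (experiment 1), or 6 or more of 12 (experiment 2), were tested with edgeR 4.0.16 in R 4.3.3 (TMM scaling, quasi-likelihood test, 1 fit per experiment), with Benjamini-Hochberg adjustment over all genes and a threshold of 0.05. Nothing states more of the replicates than 1 sample per animal. The script was tested on simulated counts. Alternatives were counts summed over transcripts, other filters and scalings, DESeq2 1.42.0, limma-voom (limma 3.58.1), a replicate block and each library left out. Values by library (in experiment 2 the lowest, median and highest of a group) are given for the 3 enzymes with most reads in each of the citrate cycle, glycolysis and gluconeogenesis in each experiment, those with an unadjusted p under 0.05 or non-overlapping groups (at least 20 reads), and Suclg2. Of the other pathway genes the 3 with the smallest p in each experiment are named. The enzymes and lists were chosen with earlier results of these data known, and no test of a list was run.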

Additional observations from a re-analysis of the deposited data

Results flagged for a closer look

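In groups of 4 or 6 libraries, the highest or lowest value was compared, for the 19 named enzymes and the summed CPM of the 4 pathways, with the others by Dixon's gap ratio. Of 115 groups looked at, 7 had a library beyond the 95% limit. The nominal rate of about 1 in 20 holds for continuous values, not for low counts. A group of 4 with reads in only 1 library always exceeds the limit. All 7 were in experiment 1 and rested on 1 to 5 reads. Idh2 in SP12wk replicate 2 was low, at 191 CPM (3 reads) against 245 to 254 CPM in the others. Idh3g in LP replicate 1 was the only library of its group with reads, at 188 CPM (4 reads). Pkm in SP28wk replicate 3, at 85.7 CPM (3 reads), Sdhd in LP replicate 4, at 77.7 CPM (2 reads), and Suclg2 in SP12wk replicate 4, at 28.3 CPM (1 read), were likewise alone in their groups. Sdhc in LP replicate 1 was low, at 94.1 CPM (2 reads) against 583 to 617 CPM. Tpi1 in SP12wk replicate 3 was high, at 251 CPM (5 reads) against 0 to 28.3 CPM. The causes were not tested.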

How the results depend on the processing

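The number of listed enzymes called was 0 in every comparison under every alternative run, and the lowest adjusted p of an enzyme was 0.17 (Sdhd, SP28wk against LP without LP replicate 4). Counts over all genes moved. In SP12wk against LP edgeR called 1 gene, and 0 with counts summed over transcripts, no filter, a stricter filter, library totals, DESeq2, limma-voom or the replicate block, and 0 to 8 with a library left out. In SP28wk against SP12wk it called 7, and 0 with summed counts, 2 with the stricter filter, 2 with DESeq2 and 2 to 11 with a library left out. In SP28wk against LP it called 11, and 0, 5 and 2 under these settings, 30 with limma-voom and 8 to 54 with a library left out (54 without LP replicate 4). Over all 3 groups it called 14, and 0, 6, 3 and 29 under the same settings and 10 to 40 with a library left out. In PRL against SAL it called 0, 1 with summed counts, 92 without a filter, 94 with the replicate block and 0 to 44 with a library left out (44 without PRL replicate 4). The cause was not tested. Nothing states that replicate numbers pair the samples. Deviations of same-numbered samples correlated at -0.14 to 0.24 in experiment 1 (over 0.1 in 3 of 12 pairs). In experiment 2 they correlated at -0.28 to 0.34 (over 0.1 in 3 of 6 pairs). Samples with different numbers were not compared, so these values cannot decide whether the numbers pair samples. The block changed no call of an enzyme.

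Medians over a pathway moved mainly when a library was left out. In SP12wk against LP they ranged from -0.23 to 0.33 for the citrate cycle, -0.95 to 0.49 for pyruvate dehydrogenase, -0.072 to 0.56 for glycolysis and 0.57 to 2.03 for gluconeogenesis. In SP28wk against SP12wk they ranged from -0.14 to 0.22 for the citrate cycle and -0.38 to 0.15 for glycolysis, and in SP28wk against LP from -0.34 to 0.16 and -0.16 to 0.65. With library totals the citrate cycle median of SP28wk against LP was -0.43. The log2 fold change of Suclg2 was -0.016 (without PRL replicate 2) to 0.22 in PRL against SAL with a library left out, and -0.059 (without LP replicate 4) to 0.83 in SP28wk against LP.

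With counts summed over transcripts, the summed CPM became 3628 (SP12wk) and 3629 (SP28wk) for the citrate cycle, 85.8 (SP12wk), 67.4 (SP28wk) and 163 (SAL) for pyruvate dehydrogenase, 4318 (LP), 4439 (SP12wk), 3206 (SP28wk), 3657 (SAL) and 4591 (PRL) for glycolysis, and 869 (SAL) and 961 (PRL) for gluconeogenesis. On TMM library sizes the SP28wk sums were 3374 for the citrate cycle and 2021 for glycolysis, and on RLE sizes the latter was 1855. With 105 to 290 enzyme reads a library, depth limits experiment 1, and reads shared among transcripts limit the levels in both.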
